A study of Mus musculus with 8 samples.

Results

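Messenger RNA of 9 costimulatory and checkpoint receptor genes, Cd28, Icos, Ctla4, Pdcd1, Btla, Lag3, Havcr2, Tigit and Cd200, was followed across 8 mouse gene arrays of CD4 T cells cultured as Th17 cells. The genes were chosen by name as immunoglobulin-family receptors of T cells, with Cd200 counted among them. Earlier results of these data were known when they were chosen. Each had exactly 1 probe set assigned to its symbol alone, so that they are 9 of the 19938 genes with a probe set of their own. The arrays form 2 sets of 4. In the SRC-3 set, 2 arrays of cells from mice labelled SRC-3 (f/f), genotype SRC-3 deficient, stand beside 2 of SRC-3 WT mice. In the RORγt set, 2 arrays of cells from RORgt (-/-) mice stand beside 2 of RORgt WT mice. SRC-3, encoded by Ncoa3, is a coactivator of nuclear receptors, and RORγt is the nuclear receptor that directs Th17 differentiation. The protocol given with every sample describes naive cells activated with antibodies to CD3 and CD28 and cultured in IL-1, IL-6 and IL-23. It names wild-type and SRC-3-deficient cells and does not mention RORγt-deficient cells. Every culture so described therefore had its CD28 engaged by antibody. The labels give no Cre driver, strain, age or sex for the mice, and do not say whether a group's 2 biological replicates are from different mice. The p-values therefore measure only how far these samples spread, which may be technical.

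A T cell reads its antigen receptor together with a further layer of surface receptors. CD28, bound by CD80 and CD86, amplifies activation, and ICOS, its relative, sustains it and supports helper functions. CTLA-4 competes with CD28 for the same ligands and PD-1 recruits phosphatases, so that both restrain activation, and BTLA, LAG-3, TIM-3 (Havcr2) and TIGIT are further brakes, most of them induced by activation. CD200 is a surface glycoprotein that T cells themselves carry and that quiets myeloid cells through the receptor CD200R.

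The samples had the CD4 T cell markers of their label. All 6 CD4 T cell marker genes measured (Cd3d, Cd3e, Cd3g, Cd247, Cd4, Thy1) were above the filter value, a log2 signal of 7.85 that is the median of all deposited values. All 6 myeloid markers, 3 of the 4 B cell markers and Cd8a were below it on all 8 arrays, and so were the NK cell genes Ncr1, Klrb1c and Klrk1. Of the same lists, Cd79b, Cd8b1 and the NK cell genes Klrd1 and Nkg7 passed the filter. NK and CD8 signal was thus not absent, and these genes are taken up below. Array medians over all probe sets were 7.904 to 7.927 in the SRC-3 set and 7.764 to 7.804 in the RORγt set, and replicates correlated with r between 0.989 and 0.997 across genes, which are not independent replicates. Ncoa3 gave 11.15 and 10.97 in SRC-3-deficient cells and 11.76 and 11.53 in their wild type, a difference that missed the threshold (limma adjusted p = 0.0567). Il17a, the gene of the signature cytokine of Th17 cells, fell from 11.63 and 11.27 on the wild-type arrays to 7.52 and 7.16 on the RORγt-deficient arrays (limma adjusted p = 4.86e-05). Without SRC-3 it was at 0.466 of wild type and missed the threshold (limma adjusted p = 0.0567). Il17f was called in both comparisons, at 0.489 without SRC-3 (limma adjusted p = 0.0347) and 0.0974 without RORγt (4.86e-05). Xist, expressed in female cells, was at 7.10 on SRC-3-deficient replicate 1 and at 6.37 and 6.08 on the RORγt-deficient arrays, against 12.55 or more on the other 5. Sex and genotype thus cannot be told apart in the RORγt comparison.

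Of the 9 genes, 1 passed the test against its own wild type, Cd200, the gene of the CD200R ligand, in the RORγt comparison. A gene was called at an adjusted p under 0.05 in 1 limma fit of all 8 arrays, and 8 of the 9 genes entered it, since Havcr2 was below the filter value on all arrays. In SRC-3-deficient cells, 0 of the 8 were called by limma, where 0.225% of the 11128 genes tested were called. An unadjusted p under 0.05 was reached by 1 of the 8 and by 1394 of the 11128. In RORγt-deficient cells 1 of the 8 was called, and 19.4% of all genes. There 2 of the 8 and 3847 of the 11128 had an unadjusted p under 0.05 (limma). The log2 fold changes of the 9 ran from −0.26 to 0.16 in the SRC-3 comparison, with a median of −0.08 against 0.02 for all genes tested. In the RORγt comparison they ran from −0.45 to 0.17, with a median of −0.08 against 0.00 for all genes. Deficient and wild-type arrays did not overlap for 3 of the 8 genes without SRC-3 and for 6 of the 8 without RORγt, shares near those of all genes, 37.2% and 70.0%. In bulk RNA, fewer cells that carry a transcript cannot be told apart from less of it per cell.

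**Figure D1:**
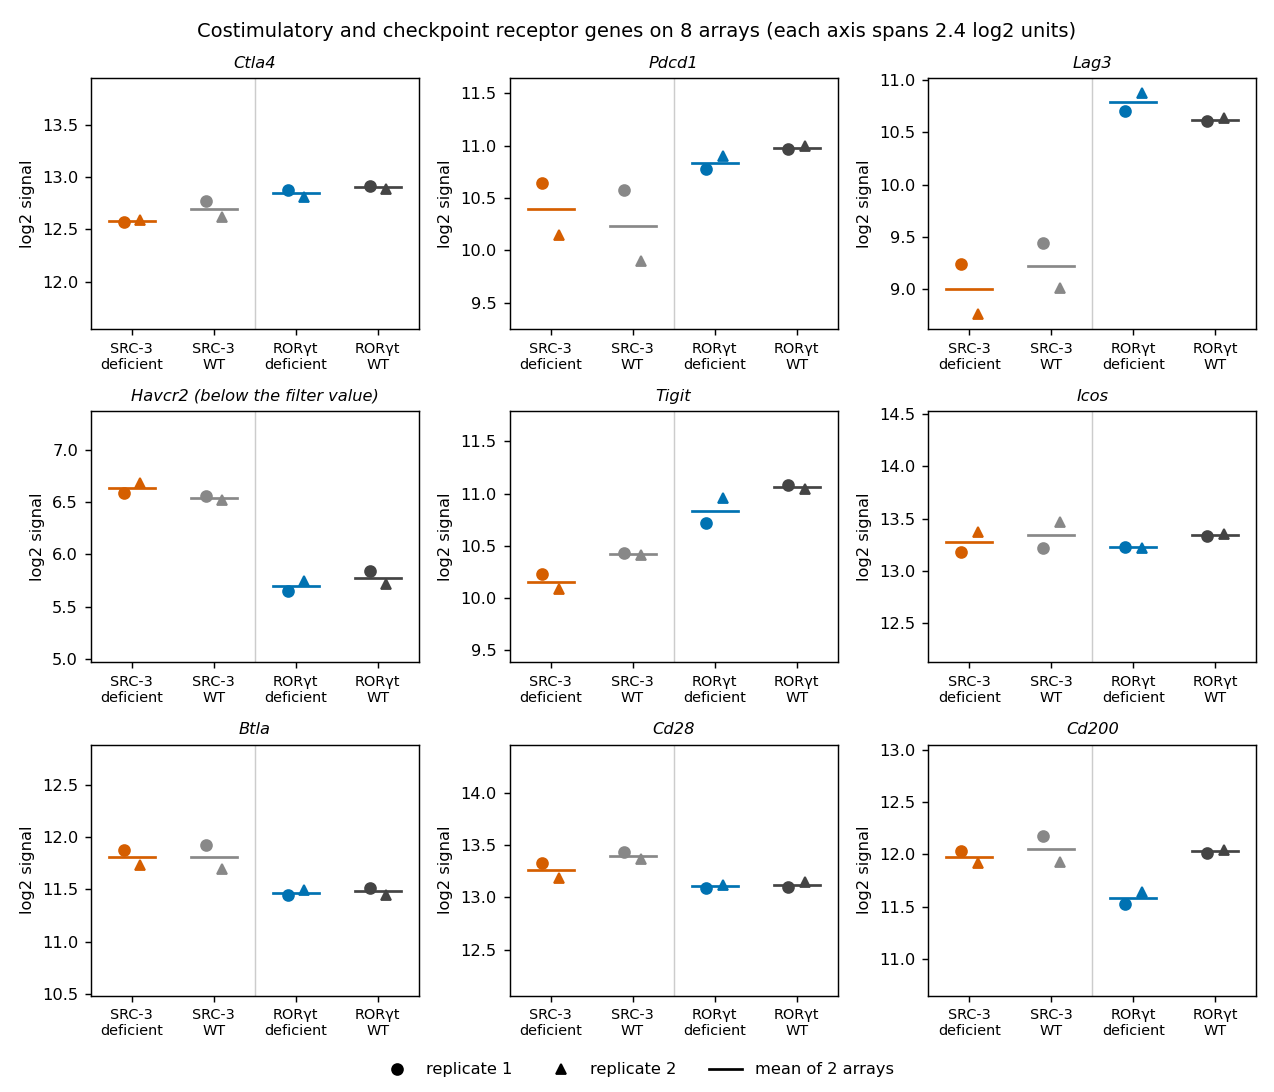
Log2 signal of each of the 9 receptor genes (y axis) on the 8 arrays, by group (x axis). Circles are replicate 1, triangles replicate 2, and bars the mean of the 2 arrays; every panel spans the same number of log2 units, and the grey line parts the SRC-3 set from the RORγt set. Lag3, Pdcd1 and Tigit lie higher in the RORγt set whatever the genotype, and the 2 lowest Cd200 signals are those of the RORγt-deficient arrays.

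**Figure D2:**
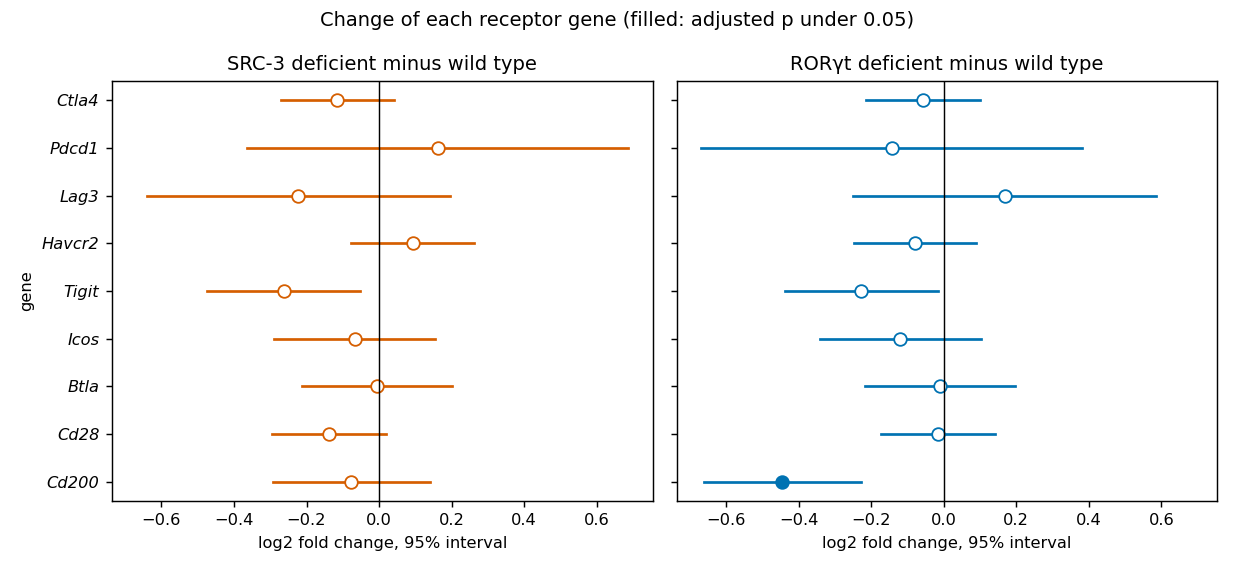
Log2 fold change of the 9 receptor genes (x axis, with the 95% interval of the limma fit as a line) in SRC-3-deficient cells (left) and RORγt-deficient cells (right), each against the wild type of its own set. The filled point, Cd200 at −0.45, is the call at an adjusted p under 0.05; the intervals of Pdcd1 and Lag3 are the widest. Havcr2 was fitted without the filter.

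Cd28, the activating receptor that the culture antibody binds, gave log2 signals of 13.33 and 13.19 without SRC-3 and 13.43 and 13.36 in wild-type cells. Both deficient arrays were just below both wild-type arrays, and the mean was 0.909 of wild type (95% interval 0.815 to 1.01, limma adjusted p = 0.452). In the RORγt set, Cd28 was at 13.09 and 13.12 without the receptor and 13.09 and 13.15 with it. These arrays overlapped (0.989 of wild type, 95% interval 0.886 to 1.10, adjusted p = 0.890 by limma).

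Icos, the inducible relative of CD28, was at 13.18 and 13.37 in SRC-3-deficient cells and 13.22 and 13.47 in wild type. The 2 replicates of each genotype were further apart than the genotypes (0.955 of wild type, 95% interval 0.819 to 1.11, limma adjusted p = 0.847). Without RORγt its signals of 13.23 and 13.22 were both below the wild-type signals of 13.34 and 13.35. The ratio to wild type was 0.920 (95% interval 0.789 to 1.07) and was not called (limma adjusted p = 0.422).

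Ctla4, the inhibitory competitor of CD28, gave 12.57 and 12.59 without SRC-3 against 12.77 and 12.62 in wild type. Both deficient arrays were lower, by less than the test could separate from the spread (0.924 of wild type, 95% interval 0.829 to 1.03, limma adjusted p = 0.542). Without RORγt the signals were 12.88 and 12.81 against 12.91 and 12.89. The groups again did not overlap and again were not called (0.961 of wild type, 95% interval 0.863 to 1.07, limma adjusted p = 0.599).

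Pdcd1, which encodes PD-1, had the widest spread between replicates of the 9. Its signals were 10.64 and 10.15 in SRC-3-deficient cells and 10.57 and 9.89 in wild type. Replicate 1 was the higher array of each genotype by 0.50 and 0.68, several times the difference between genotypes. The ratio of 1.12 therefore carries an interval from 0.778 to 1.61 (limma adjusted p = 0.842), and the log2 fold change was −0.09 without SRC-3-deficient replicate 1 and −0.18 without wild-type replicate 2 of that set. In RORγt-deficient cells Pdcd1 was at 10.78 and 10.90 against 10.97 and 10.99. Both deficient arrays were below wild type (ratio 0.905, 95% interval 0.629 to 1.30, limma adjusted p = 0.705).

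Btla, whose product binds the TNF receptor family member HVEM, gave 11.88 and 11.74 without SRC-3 and 11.93 and 11.70 in wild type. In the RORγt set it gave 11.45 and 11.49 against 11.52 and 11.44. The groups overlapped in both sets, at 0.996 of wild type (95% interval 0.863 to 1.15, limma adjusted p = 0.989) and 0.992 (0.860 to 1.15, adjusted p = 0.946).

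Lag3, a CD4 relative that binds MHC class II, was at 9.25 and 8.76 in SRC-3-deficient cells and 9.44 and 9.01 in wild type. Within each genotype replicate 1 was again the higher, by 0.49 and 0.43, and the genotypes overlapped (ratio 0.857, 95% interval 0.641 to 1.15, limma adjusted p = 0.693). Without RORγt both arrays, at 10.71 and 10.87, were above the wild-type signals of 10.61 and 10.64. That ratio of 1.12 was not called (log2 fold change 0.17, 95% interval −0.25 to 0.59, limma adjusted p = 0.558).

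Havcr2, the gene of TIM-3, did not reach the filter value on any array, and its highest signal was 6.68. It gave 6.59 and 6.68 without SRC-3 against 6.56 and 6.52, and 5.65 and 5.74 without RORγt against 5.84 and 5.71. In a limma fit without the filter the adjusted p was 0.751 and 0.619. Signals this dim limit what a ratio can show.

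Tigit, an inhibitory receptor for the nectin-like ligand PVR, had the lowest ratio of the 9 in the SRC-3 comparison and, after Cd200, in the RORγt comparison. It gave 10.23 and 10.09 without SRC-3 against 10.44 and 10.41. Without RORγt it gave 10.71 and 10.96 against 11.08 and 11.04. Both deficient arrays were thus below both wild-type arrays in each set. The ratios were 0.833 (95% interval 0.720 to 0.964) and 0.855 (0.739 to 0.988), with unadjusted p of 0.0205 and 0.0377, and neither passed the limma adjustment over all genes (adjusted p = 0.304 and 0.119).

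Cd200 fell in RORγt-deficient cells. Its log2 signals were 11.52 and 11.64 there, against 12.01 and 12.04 in RORγt wild type. It gave 12.04 and 11.91 without SRC-3, against 12.18 and 11.93 in SRC-3 wild type. The 2 RORγt-deficient arrays are the lowest of all 8, and the other 6 lie together. The mean fell from 12.03 ± 0.02 to 11.58 ± 0.08 (SD, n = 2), to 0.734 of wild type (log2 fold change −0.45, SE 0.09, 95% interval of the ratio 0.632 to 0.853, limma adjusted p = 0.0168). Without SRC-3 the ratio was 0.948 (95% interval 0.816 to 1.10, limma adjusted p = 0.811), with overlapping groups. The RORγt call was lost without RORγt-deficient replicate 1 (log2 fold change −0.39, adjusted p = 0.119). It was also lost without either RORγt wild-type array (−0.46 and −0.43 without replicates 1 and 2, adjusted p = 0.0870 and 0.102), but held without RORγt-deficient replicate 2 (−0.50, adjusted p = 0.0496). The RORγt-deficient arrays have low Xist. The 1 SRC-3-deficient array with low Xist, replicate 1, had the higher Cd200 signal of its pair. Replicate 1 was also the higher in SRC-3 wild type, where both arrays have high Xist, so that pair cannot part sex from replicate. Sex and genotype cannot be told apart in this difference.

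The promoter of Cd200 is shown because this is the gene that passed, beside those of Pdcd1 and Havcr2, the 2 that hold the core motif AGGTCA bound by ROR family receptors. The sequences are RefSeq's for GRCm38.p6, from 250 bases before to 50 after the annotated start, and 6 of the 9 genes had an entry; Lag3, Icos and Cd28 are named only. Capitals mark AGGTCA or the GC-box core GGGCGG on either strand, or the TATA-box core TATAAA. Cd200 lies at chr16:45409004-45409303 on the minus strand, Pdcd1 at chr1:94052504-94052803 on the minus strand and Havcr2 at chr11:46454681-46454980 on the plus strand.
Cd200: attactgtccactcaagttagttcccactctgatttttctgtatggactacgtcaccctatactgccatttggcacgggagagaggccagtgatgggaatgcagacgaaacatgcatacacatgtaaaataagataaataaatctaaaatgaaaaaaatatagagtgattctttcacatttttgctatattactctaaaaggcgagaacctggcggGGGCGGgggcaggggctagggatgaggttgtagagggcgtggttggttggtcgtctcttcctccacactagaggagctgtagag
Pdcd1: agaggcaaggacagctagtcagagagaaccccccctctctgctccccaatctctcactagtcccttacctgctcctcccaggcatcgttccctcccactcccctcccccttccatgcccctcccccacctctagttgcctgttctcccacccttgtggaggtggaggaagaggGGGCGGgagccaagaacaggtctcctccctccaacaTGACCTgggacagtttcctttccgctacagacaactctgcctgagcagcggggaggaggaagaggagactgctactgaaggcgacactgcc
Havcr2: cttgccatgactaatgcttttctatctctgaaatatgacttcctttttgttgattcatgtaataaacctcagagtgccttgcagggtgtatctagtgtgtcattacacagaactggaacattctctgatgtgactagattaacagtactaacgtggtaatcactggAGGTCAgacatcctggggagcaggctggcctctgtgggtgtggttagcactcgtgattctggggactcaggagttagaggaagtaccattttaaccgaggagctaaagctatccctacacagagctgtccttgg
The Cd200 window held GGGCGG once, 34 bases before the start, and no match to the ROR motif. That motif lay 41 bases before the start in Pdcd1 and 84 in Havcr2, and 77 bases before it Pdcd1 also held GGGCGG. Of 32851 promoter windows of this length, 16.3% held AGGTCA, 35.7% GGGCGG and 13.6% TATAAA. The window of Ctla4 held TATAAA after the annotated start, not before it, and those of Tigit and Btla held none of the 3. A match is a stretch of letters, and no binding was measured here.

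The difference between the 2 comparisons was tested in the same limma fit, and 0 of the 8 genes passed, where 1.67% of all genes did. An unadjusted p under 0.05 was reached by 1 of the 8 and by 1920 of the 11128 genes. For Cd200 the SRC-3 change exceeded the RORγt change by 0.37 on the log2 scale (95% interval 0.06 to 0.67, unadjusted p = 0.0244, limma adjusted p = 0.222). For Lag3, which lay lower without SRC-3 and higher without RORγt, the difference was −0.39 (95% interval −0.98 to 0.20, adjusted p = 0.470). For Tigit it was −0.04 (95% interval −0.33 to 0.26, adjusted p = 0.913). In this fit a smaller effect of SRC-3 than of RORγt on Cd200 is thus not shown. A fit with a replicate block within each set, chosen after the data had been seen, called the difference for Cd200 and Lag3.

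The wild-type arrays of the 2 sets were also compared, a comparison added after the data had been seen. Lag3 was 2.63-fold higher in RORγt wild type than in SRC-3 wild type (log2 difference 1.40, SE 0.18, limma adjusted p = 0.000497). Pdcd1 was 1.68-fold higher (0.75, adjusted p = 0.0228), a difference that was 1.09 without SRC-3 wild-type replicate 1 and 0.41 without replicate 2. Tigit was 1.56-fold higher (0.64, adjusted p = 0.000759). Ctla4 was also higher (0.21, adjusted p = 0.0309), while Btla (−0.33, adjusted p = 0.0139) and Cd28 (−0.28, adjusted p = 0.00952) were lower. Icos, at 13.34 in both, and Cd200, at 12.03 and 12.05, were not called (limma adjusted p = 0.998 and 0.840). So 6 of the 8 genes were called, where 58.5% of all genes were, and any difference between the sets (mice, culture or processing) cannot be told apart here. Scaling bears on the small ones: with each array shifted to 1 median, the median of all genes went from 0.02 to 0.15 and the calls of Btla (−0.21, adjusted p = 0.0736) and Cd28 (−0.16, adjusted p = 0.0719) were lost, and after a new quantile normalization that of Ctla4 was lost (0.08, adjusted p = 0.340). The directions of these 6 genes held under both scalings. Leaving out 1 wild-type array took the calls of Pdcd1 (RORγt replicate 1, RORγt replicate 2 or SRC-3 replicate 2; adjusted p = 0.0861, 0.0922 and 0.0974), Ctla4 (the same arrays; 0.125, 0.0905 and 0.149), Btla (RORγt replicate 2 or SRC-3 replicate 1; 0.0818 and 0.0645) and Cd28 (RORγt replicate 1; 0.0617), and no single array took those of Lag3 and Tigit.

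**Figure D3:**
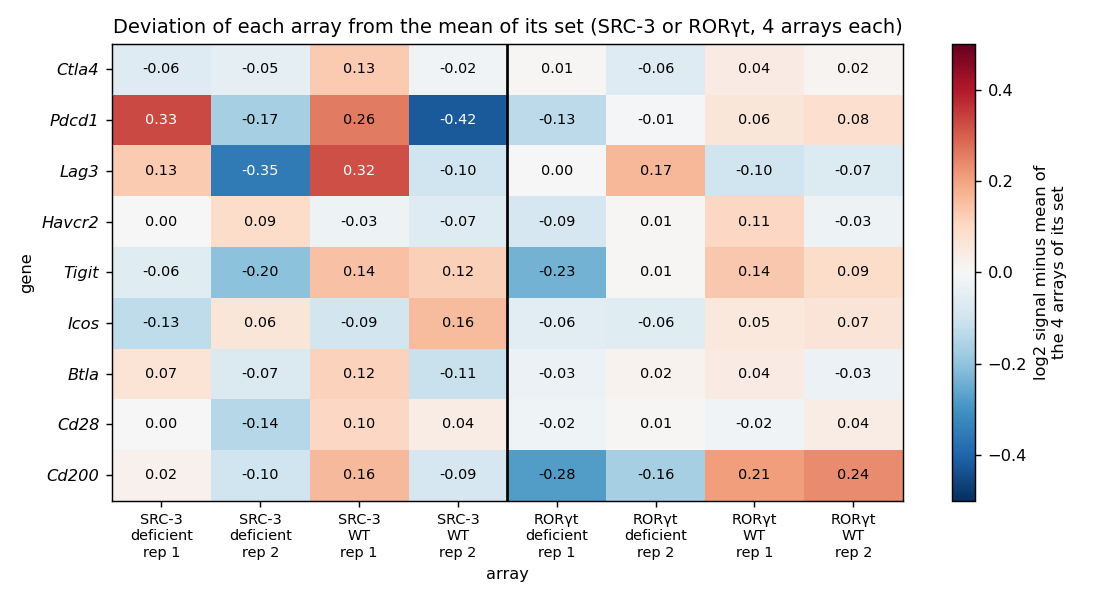
Log2 signal of each receptor gene (rows) on each array (columns) minus the mean of the 4 arrays of its set; red is above and blue below that mean. In the SRC-3 set the 2 replicates of a genotype part by most for Pdcd1 and Lag3, with replicate 1 above and replicate 2 below. Btla and Cd200 part the same way by less, and Icos parts the other way. In the RORγt set the genotypes part for 6 of the 8 genes that passed the filter, by most for Cd200.

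Within the SRC-3 set several receptor genes parted the replicates alike in both genotypes. This is not particular to them: over all 11128 genes the replicate differences of the 2 genotypes correlated at 0.54. Pdcd1, Lag3, Tigit, Btla, Cd28 and Cd200 were each higher on replicate 1 than on replicate 2 in both genotypes, Cd200 by 0.12 and 0.25. For Icos replicate 1 minus replicate 2 was −0.19 and −0.25. The 11 genes measured of a list tied to the activation state of T cells had a log2 summed signal of 15.91 on replicate 1 and 15.79 on replicate 2 of SRC-3-deficient cells, and of 15.92 and 15.70 in wild type. Their part in these differences was not tested. In the RORγt set the replicates of the 9 genes differed by at most 0.24, the gap of Tigit between the RORγt-deficient arrays.

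The positions of the genes were taken from the RefSeq annotation of GRCm38.p6 as an order only. On chromosome 1, Cd28, Ctla4 and Icos follow each other with 0 protein-coding genes between them, and Pdcd1 lies 278 protein-coding genes further on. On chromosome 16, Btla and Cd200 are direct neighbours. In RORγt-deficient cells Cd200 fell to 0.734 of wild type, and Btla was at 0.992.

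The genes around the receptors were counted from lists of textbook membership, chosen with earlier results of these data known. Of the 13 ligand genes (Cd200r1, the receptor gene for CD200, among them), 9 were above the filter. Of the 9, Cd86 reached the filter value only on the SRC-3 wild-type arrays and Icosl only on the RORγt-deficient arrays (7.95 and 8.14). In SRC-3-deficient cells none of the 9 was called by limma, with a median log2 fold change of 0.27 against 0.02 for all genes. An unadjusted p under 0.05 (limma) was reached by 5 of the 9 and by 1394 of all 11128 genes. Cd86 is 1 of the 5 but entered only through the arrays where it is high, so it lends that count and that median no support. Cd86, a ligand of CD28 and CTLA-4, was at 7.09 and 6.98 without SRC-3 and 8.11 and 7.95 in wild type. It reached the filter value only on those 2 wild-type arrays, so no ratio is given, and it was not called (limma adjusted p = 0.0770). Ceacam1, which encodes a ligand of TIM-3, was at a ratio of 1.34 (adjusted p = 0.0926). In RORγt-deficient cells 2 of the 9 ligand genes rose and 1 fell, where 10.0% of all genes rose and 9.37% fell. Tnfrsf14, the gene of the BTLA ligand HVEM, rose 1.87-fold (11.40 and 11.25 against 10.45 and 10.39, SE 0.07 on the log2 scale, limma adjusted p = 0.000800). Ceacam1 fell from 8.49 and 8.61 to 7.55 and 7.72 (adjusted p = 0.00110 by limma), below the filter value, so the size of the fall is uncertain. Lgals9, the gene of galectin-9, another TIM-3 ligand, rose 1.29-fold (adjusted p = 0.0359), which missed the threshold once RORγt-deficient replicate 1 or either RORγt wild-type array was removed (adjusted p between 0.103 and 0.206). Without SRC-3 Lgals9 was also higher, at 1.33 of wild type, and was not called (limma adjusted p = 0.150). Its difference between the comparisons was 0.04 (limma adjusted p = 0.902). In RORγt-deficient cells the PD-1 ligand genes Cd274 and Pdcd1lg2 gave ratios of 1.02 (limma adjusted p = 0.955) and 0.969 (adjusted p = 0.914). These 2 genes were named after their values were seen. Without SRC-3 they gave 1.26 (adjusted p = 0.690) and 1.49 (unadjusted p = 0.0404, limma adjusted p = 0.372).

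Of 19 genes of other surface proteins, not all of them T cell receptors of a ligand, 13 were above the filter. Most are of the immunoglobulin family (Cd5 and Cd6 are of the scavenger receptor family). None of the 13 was called by limma in the SRC-3 comparison, the lowest p being those of Cd83 (ratio 1.22, adjusted p = 0.173) and Cd96 (1.16, adjusted p = 0.238). An unadjusted p under 0.05 was reached by 3 of the 13 and by 1394 of all 11128 genes. In RORγt-deficient cells 2 of the 13 rose and 2 fell, where 10.0% of all genes rose and 9.37% fell. Cd226, the activating receptor that shares PVR with TIGIT, fell to 0.600 of wild type (8.94 and 9.01 against 9.64 and 9.79, limma adjusted p = 0.00140). Timd2, a TIM family gene, fell to 0.193 (adjusted p = 0.00153), to a mean of 7.46 that lies below the filter value, so the size of that fall is uncertain. Cd96, another PVR receptor gene, rose 1.19-fold (adjusted p = 0.0320) and Cd47, the gene of the integrin-associated protein, 1.16-fold (adjusted p = 0.0305). Leaving out any 1 of the 4 RORγt arrays lost the calls of Cd96 (adjusted p between 0.0892 and 0.195) and Cd47 (0.107 to 0.157). Among the PVR receptors in RORγt-deficient cells, then, Cd226 fell, Cd96 rose and Tigit, at 0.855, did not pass.

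Of 26 genes that carry the receptors' signals, 22 were above the filter. None was called by limma without SRC-3, where 2 of the 22 and 1394 of all 11128 genes had an unadjusted p under 0.05. The lowest p were those of Inpp5d, the lipid phosphatase SHIP-1, at a ratio of 0.872 (adjusted p = 0.356), and Lrba, which protects CTLA-4 from degradation, at 0.910 (adjusted p = 0.357). Without RORγt 3 of the 22 rose and 1 fell, where 19.4% of all genes were called. Pik3cd, a catalytic subunit of the PI3 kinase that CD28 and ICOS engage, rose 1.35-fold (limma adjusted p = 0.00420). Fyn (1.22-fold, adjusted p = 0.0338) and Prkcq (1.15-fold, adjusted p = 0.0456), kinases of the antigen receptor and CD28 pathways, rose and Lrba fell to 0.864 (adjusted p = 0.0310). These 3 calls were lost leaving out any 1 RORγt array (adjusted p between 0.112 and 0.166 for Fyn, 0.129 and 0.149 for Lrba, and up to 0.215 for Prkcq, which was also lost at 0.0547 without either SRC-3-deficient array).

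Of 23 transcription factor genes known to act on these receptors, 20 were above the filter. Maf, an activator of inhibitory receptor genes, fell to 0.624 without SRC-3 (limma adjusted p = 0.0198), the 1 call among them, where 0.0359% of all genes fell and 0.189% rose. Of the 8 arrays, 7 lost that call when removed singly (adjusted p between 0.0514 and 0.0746), the exception being replicate 1 of the SRC-3 wild type. In RORγt-deficient cells 2 of the 20 rose and 2 fell, where 19.4% of all genes were called. Tox, which sustains checkpoint receptors in exhausted T cells, rose 1.74-fold (10.38 and 10.17 against 9.41 and 9.54, limma adjusted p = 0.00180), and Foxo1 rose 1.39-fold (adjusted p = 0.00846). Tox was also higher on both SRC-3-deficient arrays, 9.59 and 9.59 against 8.97 and 9.01, and just missed the threshold there (ratio 1.52, limma adjusted p = 0.0516). Without RORγt, Id2 fell to 0.775 (limma adjusted p = 0.00706) and Bcl6, the factor of follicular helper cells, to 0.776 (adjusted p = 0.0377). Without SRC-3 they were at 0.838 and 0.843 and were not called (limma adjusted p = 0.14 and 0.36). The call of Foxo1 was lost without RORγt-deficient replicate 2 or either wild-type array of that set (adjusted p between 0.0537 and 0.0678), that of Id2 without replicate 1 of either genotype (0.0574 and 0.0623) and that of Bcl6 without any 1 of the 4 (0.0544 to 0.226).

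Of 12 genes tied to the activation state of T cells, 11 were above the filter; most rise with activation, while Il7r and Ccr7 are known to be lowered by it. There were 0 calls by limma without SRC-3, where 2 of the 11 and 1394 of all 11128 genes had an unadjusted p under 0.05. The 2 were Il7r at a ratio of 0.850 (adjusted p = 0.160) and Tnfrsf18 at 1.19 (adjusted p = 0.349). Without RORγt 0 of the 11 rose and 2 fell, where 9.37% of all genes fell, with a median log2 fold change of −0.19 against 0.00 for all genes. Il7r, the receptor chain for the survival cytokine IL-7, fell to 0.735 (limma adjusted p = 0.00360) and Tnfrsf8, the gene of CD30, to 0.624 (adjusted p = 0.0288), the latter lost without RORγt-deficient replicate 1 or either wild-type array of that set (adjusted p between 0.130 and 0.173). The log2 of the summed signal of the 5 NK cell genes was 12.27 and 12.24 without RORγt and 11.19 and 11.08 with it. Most of that sum is Nkg7, which was not called (12.07 and 12.08 against 11.02 and 10.93, limma adjusted p = 0.0512). Klrd1 reached the filter value only on the RORγt-deficient arrays, at 8.92 and 8.61 against 7.01 and 6.71. Ncr1, Klrb1c and Klrk1 were below it on all arrays, with log2 fold changes of 0.09, −0.08 and 0.25 in a fit without the filter. Their part in the values above was not tested. None of the 6 CD4 T cell markers was called by limma in either comparison. An unadjusted p under 0.05 was reached by 1 without SRC-3 and 2 without RORγt, and by 1394 and 3847 of all 11128 genes. Thy1 was at 0.862 without SRC-3 (adjusted p = 0.369) and, without RORγt, at 0.849 (adjusted p = 0.0961), with Cd247 at 0.852 (adjusted p = 0.0965). Cd8b1, the 1 CD8 gene above the filter, was at 1.33 and 1.13 of wild type (limma adjusted p = 0.133 and 0.229). Cd79b of the B cell list was at 1.01 and 0.863 (adjusted p = 0.966 and 0.214), and Sox13, the 1 γδ T cell gene measured, at 0.983 and 0.997 (adjusted p = 0.925 and 0.967).

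**Figure D4:**
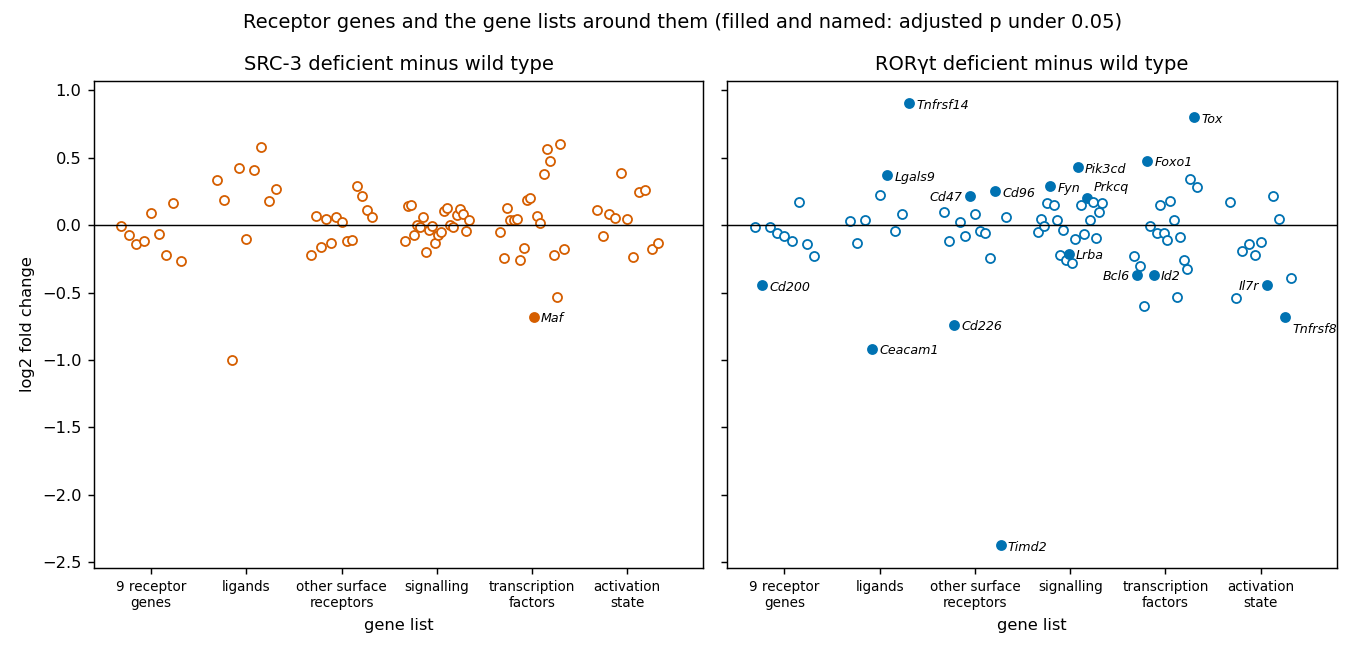
Log2 fold change (y axis) of the 9 receptor genes and of the genes above the filter in 5 lists around them (x axis), in SRC-3-deficient cells (left) and RORγt-deficient cells (right). Each point is a gene; filled, named points were called at an adjusted p under 0.05. Without SRC-3 the call is Maf; without RORγt, Tnfrsf14 and Tox rose most and Timd2 and Ceacam1 fell most among the called genes.

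The genes whose pattern was most like that of a receptor gene were sought over the 8 arrays after each set was centred on its own mean, for Cd200, Tigit and Icos, the 3 genes with the lowest adjusted p. Those nearest Cd200 were Evi5 (Pearson r = 0.997), Ier5 (0.997) and Myo10 (0.995). Their log2 fold changes without RORγt, which the choice by likeness to Cd200 itself sets, were −0.22, −0.50 and −1.02. Nearest Tigit were Ccdc88c (0.997), Inpp5d (0.987) and Mafg (0.975), and nearest Icos were Nceh1 (0.990), Mir211 (0.986) and Gm10612 (0.981). With 8 arrays such values are easily reached: 662 genes correlated with Cd200 above 0.9, 61 with Tigit and 169 with Icos.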

How the data were processed

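RNA of 8 Th17 cultures (4 groups of 2) was hybridised to Affymetrix mouse gene arrays. The deposited values are log2 signals that the authors made with RMA in Expression Console, per the submitters' processing notes; the version and genome build are not given in the sources used here. RMA corrects background within each array and quantile-normalizes and summarizes probes across arrays, so a shift shared by most genes can be removed; array medians still differed between the sets. Of 35556 probe sets, 21789 have 1 gene symbol, 1621 several and 12146 none. Genes reaching 7.85 on at least 2 arrays were kept, each by its brightest probe set (11128 genes). One limma fit (version 3.58.1, R 4.3.3) of 4 group means gave all comparisons, with Benjamini-Hochberg adjustment over all genes. The script was tested on simulated data. The number of arrays limits precision.

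The genes and lists were chosen with earlier results of these data known. The text names all 9 receptor genes, of each list up to 6 called genes by smallest p or, where none was called, up to 2, and the 3 most similar genes for each of 3 receptor genes. Alternatives were the scaling, filter, probe set rule, variance model, array weights, replicate block, threshold and leaving out each array.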

Additional observations from a re-analysis of the deposited data

Results flagged for a closer look

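No receptor gene was singled out by the test of the difference between the comparisons in the main fit. Groups of 2 arrays allow no test for an outlying array. Among the genes around the receptors, 4 changed differently in the SRC-3 and RORγt comparisons by that test (SRC-3 change minus RORγt change on the log2 scale, limma). Of the 9 ligand genes tested, 1 had a positive and 1 a negative difference, and of the 13 other surface protein genes 2 had a positive difference. None of the 22 signalling, 20 transcription factor and 11 activation genes was called, where 1.67% of all genes were. For Ceacam1 the difference was 1.34 (adjusted p = 0.00451), from log2 fold changes of 0.43 and −0.92. For Timd2 it was 2.49 (adjusted p = 0.0191), from 0.11 and −2.38. For Cd226 it was 0.58 (adjusted p = 0.0402), from −0.16 and −0.74. For Tnfrsf14 it was −0.64 (adjusted p = 0.0384), from 0.27 and 0.91. For the NK cell gene Klrd1 it was −2.37 (adjusted p = 0.00325), but Klrd1 entered the test only through the RORγt-deficient arrays, where it is high, and its other 6 signals were below the filter value, so this supports no difference. Ceacam1 and Timd2 were also below that value on both RORγt-deficient arrays, which leaves the size of their differences uncertain.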

How the results depend on the processing

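The Cd200 fall kept its direction under all 20 alternatives (log2 fold change −0.50 to −0.39). At an adjusted p of 0.01 it (−0.45) and the count of receptor genes called without RORγt (0) missed the threshold, and 3 of 8 were called between wild types. Leaving out 1 array gave 0 to 1 receptor genes without RORγt and 3 to 6 between wild types.

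The count of all genes called without SRC-3 (25) became 14 with the stricter filter, 0 with only its 4 arrays (limma; 827 at an unadjusted p under 0.05), 47 with an intensity trend and robust prior, 10 with array weights, 0 at an adjusted p of 0.01 (1394 at an unadjusted p under 0.05), 129 at 0.10, and 0 to 61 leaving out 1 array. The RORγt count (2157) became 3389 with only its 4 arrays, 3679 with array weights, 749 at 0.01, and 486 to 2539 leaving out 1 array.

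Replicate numbers are shared by the groups, but no label pairs the samples. Replicate differences correlated across genes at 0.54 in the SRC-3 set and 0.00 in the RORγt set. With the replicate block as 1 term, 29 genes were called without SRC-3 and 2101 without RORγt. With a block within each set, chosen after seeing the data, 301 and 3411 were called, and the difference between comparisons was called for 2 receptor genes, Cd200 and Lag3.

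Of 360 single values of receptor genes under alternatives, 342 kept direction and side of the threshold, and 14 changed sign, none of them called. With a new quantile normalization Cd28 without RORγt was at 0.0151 and Cd79b without SRC-3 at −0.00109. With arrays shifted to 1 median, Btla, Cd28 and Sox13 without RORγt were at 0.0106, 0.00543 and 0.0170. Leaving out 1 array, the SRC-3 log2 fold change ran from −0.18 to 0.50 for Pdcd1, −0.19 to 0.0567 for Icos, −0.47 to 0.0202 for Lag3, −0.12 to 0.11 for Btla, −0.20 to 0.0468 for Cd200, −0.21 to 0.0326 for Itgax, −0.49 to 0.60 for Nkg7, −0.0652 to 0.0150 for Sox13 and −0.10 to 0.15 for Cd79b. The RORγt log2 fold change ran from −0.0474 to 0.0246 for Btla, −0.0404 to 0.0305 for Sox13 and −0.0436 to 0.0106 for Cd28. The cause of these moves was not tested. Dim signals, such as Havcr2's below the filter value, limit what can be shown.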
